A study of Mus musculus with 24 samples.

Results

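The regions described here are distal regions at which H3K9ac, histone H3 acetylated on lysine 9, was called in every library of the study. Overlapping peaks (by 1 bp or more) of 12 H3K9ac peak lists on chromosomes 1 to 19 and X were merged into 38586 regions, of which 12098 held a peak of all 12 libraries. Of these, 9973 lay within 1 kb of a start site of transcription (TSS) annotated for any protein-coding gene (GENCODE vM21) and are called promoter regions here, 124 were distal but 5000 bp or wider, and 2001 were distal and narrower than 5000 bp. Those 2001 regions are the subject of this report. They were chosen by their measured peaks, that is by being called in all 12 lists, so that presence, and the fold enrichment it needs, are given below as a description.

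H3K9ac was profiled by ChIPmentation, in which immunoprecipitated chromatin is tagged with sequencing adapters by the Tn5 transposase, in spheroids of 4T1 cells, an established mouse mammary carcinoma line, grown for 5 days. Each of 4 groups had 3 libraries. Scramble cells (SCR in the labels) carried a non-targeting sgRNA. CPT1a knockout cells (CPT1a_KO) lacked the enzyme that admits long-chain fatty acids to mitochondria, and KAT2a knockout cells (KAT2a_KO) lacked an acetyltransferase known to act on H3K9. The labels give the medium of these 3 groups as holding 75 µM palmitate. The fourth group (CPT1a_KO_Ac) was CPT1a knockout cells given 5 mM acetate, for which the labels name no palmitate, although a legend of the study describes palmitate in the cultures with acetate as well. According to the methods, all lines carried a doxycycline-inducible Cas9, and the sgRNAs of a knocked-out gene were aimed at 2 different exons, outside what a promoter peak could check. The labels do not tie the 3 libraries of a group to separate cultures, so p-values measure the spread between these libraries, which may be technical. The study asked whether the loss of either gene changes H3K9ac and whether acetate restores it.

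H3K9ac is placed by acetyltransferases of the KAT2 family and others and removed by histone deacetylases. It is densest over the nucleosomes that flank active promoters, and it also marks active enhancers, which lie between genes or in introns and act on promoters at a distance. Enhancers bind cell-type and signal-responsive factors such as AP-1, TEAD and RUNX proteins, and many are transcribed into short-lived noncoding RNA.

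The sequences below are 200 bases of the mm10 (GRCm38) plus strand around the peak summit of members on which the comparisons turn, and are shown because their base composition can be set beside the rank differences below. Capitals mark matches to the SP/KLF motif GGGCGG or the RUNX motif TGTGGTT on either strand.
Highest fold enrichment, at Snord104 (chr11:106501094-106501293): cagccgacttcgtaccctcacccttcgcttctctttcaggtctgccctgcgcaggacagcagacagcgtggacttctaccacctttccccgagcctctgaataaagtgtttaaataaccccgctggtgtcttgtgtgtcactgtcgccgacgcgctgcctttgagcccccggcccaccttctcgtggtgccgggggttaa
Largest fall in KAT2a knockout, near Ifi204 (chr1:173801784-173801983): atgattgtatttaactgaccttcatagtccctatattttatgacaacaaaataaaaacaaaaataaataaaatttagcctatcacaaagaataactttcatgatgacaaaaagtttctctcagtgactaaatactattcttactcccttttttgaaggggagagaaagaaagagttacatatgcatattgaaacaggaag
Largest rise in CPT1a and in KAT2a knockout, at 6720427I07Rik (chr13:48546131-48546330): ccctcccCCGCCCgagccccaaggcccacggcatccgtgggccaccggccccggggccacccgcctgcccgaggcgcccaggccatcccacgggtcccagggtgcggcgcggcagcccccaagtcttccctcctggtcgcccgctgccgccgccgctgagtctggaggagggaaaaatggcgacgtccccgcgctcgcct
Largest rise in CPT1a knockout with acetate against scramble, at 5830454E08Rik near Rpl14 (chr9:120577550-120577749): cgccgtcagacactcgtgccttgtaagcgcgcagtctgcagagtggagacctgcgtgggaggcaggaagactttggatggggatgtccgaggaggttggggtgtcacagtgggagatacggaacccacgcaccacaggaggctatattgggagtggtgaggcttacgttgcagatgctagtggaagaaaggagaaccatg
Largest negative difference with acetate (not called) among CPT1a knockout cells, near Pum2 (chr12:8640847-8641046): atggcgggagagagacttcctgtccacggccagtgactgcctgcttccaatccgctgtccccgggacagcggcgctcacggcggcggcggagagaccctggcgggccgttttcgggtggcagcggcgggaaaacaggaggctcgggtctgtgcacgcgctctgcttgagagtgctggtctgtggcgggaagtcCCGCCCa
Largest positive difference with acetate (not called) among CPT1a knockout cells, near Nusap1 (chr2:119594498-119594697): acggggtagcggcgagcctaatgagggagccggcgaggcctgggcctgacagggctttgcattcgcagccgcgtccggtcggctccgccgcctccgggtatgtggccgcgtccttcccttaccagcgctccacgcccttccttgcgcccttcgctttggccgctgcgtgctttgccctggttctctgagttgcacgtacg
A copy of the array on chromosome 6, near Pdia4 (chr6:47772158-47772357): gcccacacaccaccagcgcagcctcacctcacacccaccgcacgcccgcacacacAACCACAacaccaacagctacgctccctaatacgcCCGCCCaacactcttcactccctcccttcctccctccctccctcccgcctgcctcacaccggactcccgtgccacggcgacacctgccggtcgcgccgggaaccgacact

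Distal regions found in every library were the strong minority of all distal H3K9ac regions. Among distal regions under 5000 bp, 11909 were called in 1 library alone, 951 in 11 libraries and 2001 in all 12, so that the members made up 8.26% of the distal regions. The fold enrichment of a peak, as deposited, is the fragment pileup at its summit divided by the local background of the same library, with 1 added to each. A region takes its highest value in each library. Taken over the libraries that called a region, the median was 4.22 for regions called in 1 library, 6.74 for those called in 11 and 10.4 for the members. Of the 951 regions called in 11 libraries, 797 were missed by CPT1a knockout replicate 3, which has the lowest calling depth (0.554 fragments per base, the mean genome coverage at which a list was called, against 0.660 to 2.52 in the other 11 libraries), and 77 by acetate replicate 2, which has the next lowest (0.660). The part of depth in membership was not tested. When peaks were first scaled to equal calling depth, those with a −log10 p under 60 also had to reach a scaled −log10 p of 5. After this, 1212 distal regions remained in all 12 lists, so the loss mixes depth with a stricter cut. A cut at a −log10 q of 5 without scaling left 1595.

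**Figure D1:**
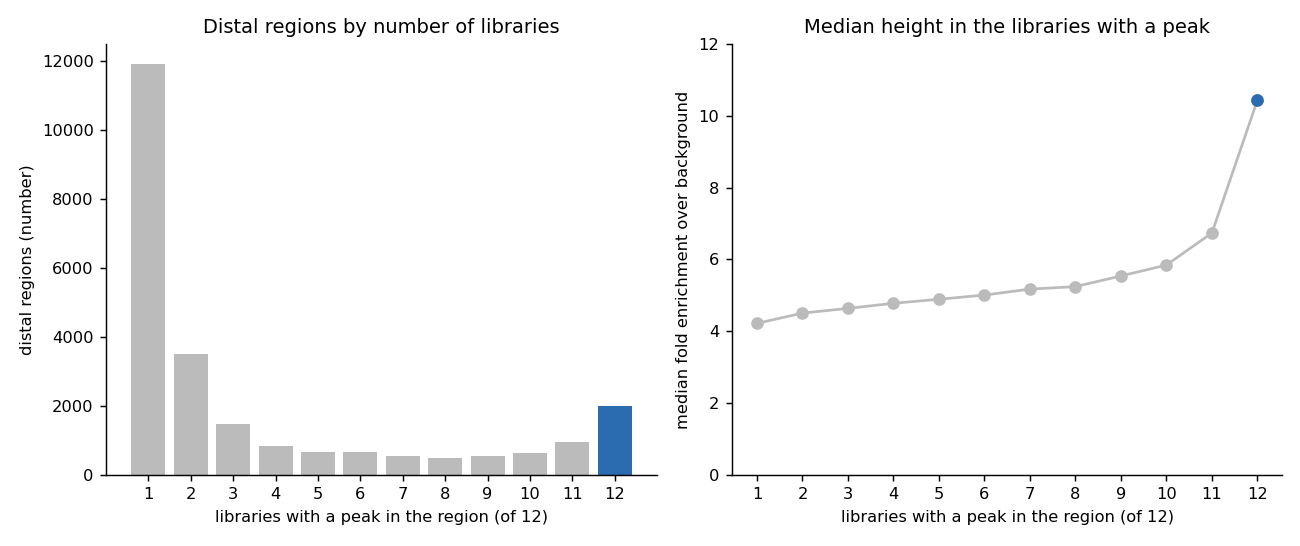
Number of distal regions under 5000 bp (bars, left) and their median deposited fold enrichment (right) by the number of libraries, 1 to 12, that called them. Counts fall from 11909 regions in 1 library and turn up to 951 in 11 and 2001 in 12 libraries, while the median fold enrichment climbs from 4.22 to 10.4.

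The members were mostly intergenic or intronic. By their summits, 926 of 2001 (46.3%) were intergenic, 627 (31.3%) lay in an intron of a protein-coding gene, 228 in an intron and 165 in an exon of a noncoding gene, 32 in a coding exon and 23 in an untranslated or noncoding exon of a protein-coding gene. The median distance to the nearest protein-coding TSS was 18415 bp (quartiles 7562 and 43850). Between 10 and 50 kb from it lay 905 members (45.2%), and 187 lay over 100 kb away. The median member was 2037 bp wide against 3370 bp for promoter regions, and the median fold enrichment was 10.4 against 24.1. Median GC content was 49.0% (quartiles 45.6 and 52.3%), and the ratio of observed to expected CpG was 0.303 against 0.510. Members lay nearest to 1539 of 21728 protein-coding genes (7.08%), and 1212 of these genes had a single member.

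At the limits of the rule, the widest member was 4969 bp (chr2:170151721-170156689, near Zfp217, fold enrichment 16.9). The member nearest to a protein-coding TSS lay 1009 bp from Nup160 (chr2:90678224-90681724, 30.4), and the farthest region kept out as a promoter lay 945 bp from Tmem171 (chr13:98690325-98693823, 15.8).

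The strongest members were starts of noncoding RNA genes. A TSS of a noncoding gene or pseudogene lay within 1 kb of 478 members (23.9%), and their median fold enrichment was 13.5 against 9.91 in the 1523 members without any annotated TSS. Their CpG ratio was also higher, with a median of 0.442 against 0.282. By the class of that gene, 285 members had a long noncoding RNA (median fold enrichment 14.7), 60 a small RNA (13.0), 113 a pseudogene (11.4) and 20 another kind. All 10 members with the highest fold enrichment lay within 1 kb of such a TSS, at Snord104, Snhg6, 1110038B12Rik, B330016D10Rik, Gm23143, Snhg5, a processed transcript of Ptpmt1, 2410006H16Rik, Terc and Gm2885.

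Of these, 5 carry small nucleolar RNAs (snoRNAs), which guide the chemical modification of ribosomal RNA and are mostly cut from introns of host transcripts. The member at Snord104 (chr11:106499384-106502785, near Ern1) had the highest median, 46.8. Its fold enrichment was 32.3, 26.7 and 24.0 in scramble, 48.7, 54.4 and 30.4 in CPT1a knockout, 39.7, 48.5 and 48.4 once acetate was given and 45.1, 50.8 and 52.4 in KAT2a knockout. Fold enrichments are not scaled between libraries, so these values describe each list and were not compared across groups. At Snhg6 (chr1:9940963-9944883), the host of Snord87, the rank percentiles defined below were 99.2, 98.7 and 98.2 in scramble, 97.1, 98.2 and 98.1 in CPT1a knockout, 96.7, 86.1 and 88.7 in the acetate group and 94.6, 88.1 and 95.1 in KAT2a knockout. Its call in the acetate group against scramble (limma adjusted p = 0.0434) was lost under most alternatives, among them removal of the GC trend (0.301). With that removal the rank difference was −8.67 points, against −8.23 with the trend kept. The KAT2a difference did not pass (limma adjusted p = 0.0727). Over the 16 members at the TSS of a snoRNA host gene, a class formed after their values were seen, the median fold enrichment was 34.1, above the promoter median of 24.1. Of these 16, 3 were called lower and 0 higher in each comparison with scramble described below, where 6.22% (CPT1a), 3.01% (KAT2a) and 3.98% (acetate) of all regions were lower. With ranks among distal regions alone, 1 was lower and 1 higher in CPT1a knockout and 0 were called in the others. The member at Snhg5 (chr9:88520050-88524721), host of Snord50a and Snord50b, was among them, with rank percentiles of 99.8, 99.1 and 99.3 in scramble and 91.0, 91.7 and 84.6 in CPT1a knockout (limma adjusted p = 0.00732, and 0.133 with ranks among distal regions alone). The member at Terc (chr3:96411960-96415278), which encodes the RNA template of telomerase, had ranks of 82.9, 66.8 and 80.2 in scramble and 90.1, 96.3 and 92.0 in CPT1a knockout, a difference that did not pass (limma adjusted p = 0.122).

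To compare groups, each region's fold enrichment was turned into a rank percentile among the 12098 regions of its library, where 0 is the weakest and 100 the strongest. Members ranked low in every library and somewhat higher in scramble than in the other groups. Their median rank was 20.1, 16.4 and 18.6 in the scramble libraries (mean 18.4 ± 1.86, SD, n = 3), 13.6, 13.1 and 14.0 in CPT1a knockout (13.6 ± 0.430), 13.9, 14.5 and 13.7 in the acetate group (14.0 ± 0.425) and 13.7, 14.3 and 15.1 in KAT2a knockout (14.4 ± 0.686). No scramble library overlapped a library of another group. The ratio of the members' median fold enrichment to that of promoter regions was 0.511 ± 0.0493 in scramble, 0.428 ± 0.00221 in CPT1a knockout, 0.439 ± 0.00367 in the acetate group and 0.444 ± 0.0148 in KAT2a knockout. Calling depth was also higher in scramble replicate 1 (2.52) than elsewhere and between 1.87 and 1.91 in scramble replicates 2 and 3 and acetate replicate 3, and its part in these differences was not tested. Across members, library ranks correlated with a Spearman coefficient of 0.698 to 0.811 within groups (12 pairs) and 0.529 to 0.804 between groups (54 pairs).

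**Figure D2:**
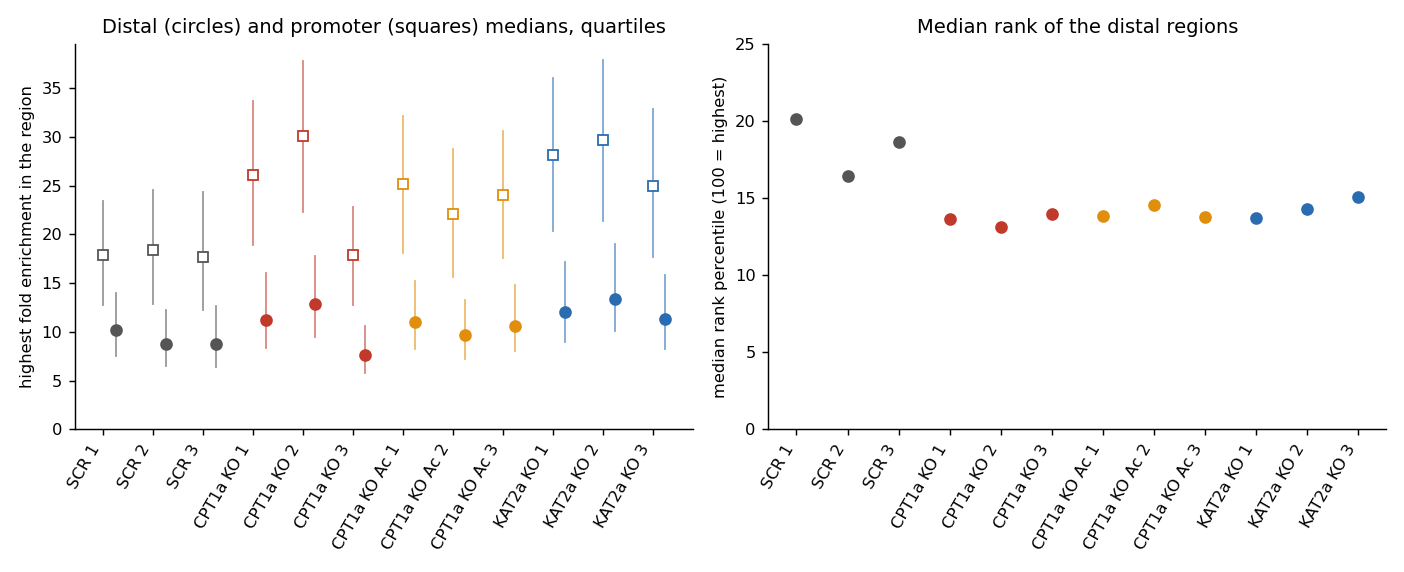
Median deposited fold enrichment with quartiles for the 2001 distal members (circles) and the 9973 promoter regions (squares) in each of the 12 libraries, and the median rank percentile of the members in each library. The members lie below the promoter regions throughout, and the 3 scramble libraries have the highest median ranks, 16.4 to 20.1, against 13.1 to 15.1 in the other 9.

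In CPT1a knockout against scramble, the members fell more often than they rose. With limma on normal scores of the ranks, fitted over all 12098 regions, 64 members (3.20%) were higher and 176 (8.80%) lower at an adjusted p under 0.05, where 6% and 6.22% of all regions were. The median rank difference was −3.52 percentile points over members, 0.09 over all regions and 1.33 over promoter regions. The 3 knockout and 3 scramble ranks of a region did not overlap in 682 members (34.1%, background 32.9%), of which 483 were lower in the knockout. The count of 240 calls rests partly on single libraries. It was 127 without scramble replicate 1 and 120 without scramble replicate 3, and 66 (21 higher, 45 lower) once the trend of rank with GC content was removed within each library. With members ranked among distal regions alone it was 225, now with 128 higher and 97 lower.

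The 5 members that fell most in CPT1a knockout were all extremely AT-rich. At 150332 bp from the TSS of Cntn4, a neuronal adhesion gene, the rank was 99.3, 99.7 and 91.7 in scramble and 1.14, 5.05 and 5.66 in CPT1a knockout. This region was among the strongest in scramble and among the weakest in the knockout, a score difference of -4.04 ± 0.75 (SE, n = 3, limma adjusted p = 0.00565). The member nearest to Tbx3, a T-box factor of mammary development, lay 424295 bp from its TSS (chr5:119245702-119246374). Its ranks were 96.8, 99.3 and 99.5 in scramble and 7.58, 4.63 and 49.0 in the knockout (limma adjusted p = 0.00255). The others lay nearest to Vstm2a (chr11:15429376-15430008), Ripk2 (chr4:16870854-16871434) and Capn9 (chr8:124601823-124602462), at 827716, 707207 and 10978 bp from the TSS. Their mean rank differences were -77.7, -74.1 and -73.3 points. These 3 did not pass once the GC trend was removed (limma adjusted p = 0.0612, 0.128 and 0.0700), with rank differences of −57.0, −58.9 and −56.7. That near Vstm2a did not pass without scramble replicate 3 (0.0512), nor that near Ripk2 without scramble replicates 2 or 3 (0.0793 and 0.0928) or any 1 knockout replicate (0.0539 to 0.0680). Those near Cntn4 and Tbx3 passed with the GC trend removed and without scramble replicate 3. Only 16 of the 12098 regions were under 30% GC. The lowest of the 50 bins used for this removal thus held mostly regions of higher GC content. The removal was not fitted at the GC content of these members, so passing it does not set their falls apart from GC content.

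The 5 members that rose most in CPT1a knockout had GC contents of 46.1 to 64.4%, and 2 of them lay at starts of noncoding transcripts. At 6720427I07Rik (chr13:48544093-48547690), whose summit sequence above is 77.5% GC, the rank was 48.3, 46.6 and 33.8 in scramble and 97.8, 87.8 and 94.1 in the knockout, a score difference of 1.76 ± 0.24 (SE, n = 3, limma adjusted p = 0.00125). At Mir17hg (chr14:115039646-115043614), the host of the miR-17-92 cluster, a microRNA group that promotes proliferation, the ranks were 49.3, 35.6 and 32.4 in scramble and 88.2, 77.3 and 86.1 in the knockout (limma adjusted p = 0.00404). All 3 knockout libraries lay above all 3 scramble libraries at both. Near Rph3al, a gene of regulated exocytosis (chr11:75965623-75967401), the ranks were 16.4, 24.0 and 13.9 in scramble and 62.5, 65.3 and 71.0 in the knockout (limma adjusted p = 0.00484). Members near Pum2, an RNA-binding translational repressor (chr12:8639919-8641847), and Zfp869, a zinc-finger gene (chr8:69714356-69717734), rose by 42.6 and 40.7 points. The rises at Mir17hg and near Rph3al did not pass with the GC trend removed (limma adjusted p = 0.0614 and 0.0844), nor did that near Pum2 without scramble replicate 1, scramble replicate 3 or knockout replicate 3 (0.0557, 0.0585 and 0.0563).

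KAT2a knockout against scramble gave fewer calls, again with more falls than rises. In limma, 14 members (0.70%) were higher and 85 (4.25%) lower, where 2.37% and 3.01% of all regions were. The ranks did not overlap in 556 members (27.8%, background 29.7%), 400 of them lower in the knockout, and the median rank difference was −2.44 points. This comparison shares its scramble libraries with the others, so the similar direction is not a separate observation. The count of 99 was 28 without scramble replicate 1, 24 without scramble replicate 3, and 38, 45 and 57 without KAT2a knockout replicates 1, 2 and 3. It was 23 after removal of the GC trend, and 31 (15 higher, 16 lower) with ranks among distal regions alone.

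The largest fall in KAT2a knockout was near Ifi204, an interferon-inducible DNA sensor (chr1:173800576-173803241). Its rank was 96.7, 87.5 and 57.9 in scramble and 30.9, 12.7 and 28.9 in KAT2a knockout, a score difference of -1.80 ± 0.41 (SE, n = 3, limma adjusted p = 0.0273). Near Cpeb1, which regulates messenger RNA polyadenylation (chr7:81420401-81421462), the ranks were 96.3, 66.6 and 83.7 in scramble and 23.1, 27.2 and 34 in the knockout (limma adjusted p = 0.00874). The member near Tbx3 ranked 26.8, 13.4 and 88.6 in KAT2a knockout, so that replicate 3 stood with scramble and the other replicates did not. Members near Med13l, a Mediator subunit (chr5:118513033-118516490), and Cox20, an assembly factor of cytochrome c oxidase (chr1:178299440-178300487), fell by 52.1 and 50.2 points. The largest rise was again at 6720427I07Rik, with ranks of 83.3, 82.1 and 89.6 in KAT2a knockout (limma adjusted p = 0.014). Members near Zfp869, Nacc2, a transcriptional repressor (chr2:26138811-26141719), Med13l (chr5:118458422-118460833, another region than the one that fell) and Rpl14 (chr9:120577095-120578992) rose by 40.0, 38.5, 31.9 and 31.9 points. Each of these 10 calls was lost under at least 1 alternative. Near Ifi204 it was lost with the GC trend removed (limma adjusted p = 0.190) and without any library of the comparison except scramble replicate 3 (0.0563 to 0.102). That near Cpeb1 was lost with the GC trend removed (0.0792), and those near Cox20 and at 6720427I07Rik without scramble replicate 3 (0.0522 and 0.0583). With a width-weighted mean fold enrichment in place of the highest, the difference at 6720427I07Rik was 23.4 points (0.333).

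No member passed the test between CPT1a knockout cells with and without acetate. In CPT1a knockout with acetate against CPT1a knockout, limma called 0 members and 0% of all regions, and 144 of 2001 members and 1048 of 12098 regions had an unadjusted p under 0.05. Ranks among distal regions alone gave 2 calls, both lower with acetate. The median rank difference was 0.21 points, and the ranks did not overlap in 255 members (12.7%, background 14.3%), 129 higher and 126 lower. The largest positive difference lay at 1700020I14Rik near Nusap1, a spindle protein gene (chr2:119592599-119597095), where ranks were 49.4, 79.9 and 41.2 without and 95.8, 93.9 and 93.5 with acetate (limma adjusted p = 0.377). Members near Ccdc12 (chr9:110683022-110687102) and Tcte2 (chr17:13681979-13684654) differed by 37.3 and 34.1 points. The largest negative difference was near Pum2, whose ranks were 56.8, 70.5 and 81.9 without and 34.7, 42.6 and 48.8 with acetate (limma adjusted p = 0.484), followed by members near Wnt7b (chr15:85634678-85636132) and Foxj2 (chr6:122809328-122813035).

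Against scramble, CPT1a knockout with acetate had 15 members (0.75%) higher and 122 (6.10%) lower, where 2.31% and 3.98% of all regions were. The ranks did not overlap in 595 members (29.7%, background 32.3%), 438 of them lower. The 5 largest falls were again AT-rich regions, near Cdh18, Vstm2a, Mcc, Tnfsf11 and Cntn4. Near Cdh18, a cadherin gene, the ranks were 96.1, 100 and 99.4 in scramble and 8.01, 27.5 and 6.59 with acetate, a score difference of -3.73 ± 0.69 (SE, n = 3, limma adjusted p = 0.00852). Of these 5 calls, that near Cdh18 passed with the GC trend removed, and those near Vstm2a, Mcc, Tnfsf11 and Cntn4 did not (limma adjusted p = 0.0529, 0.124, 0.144 and 0.122). The rank differences of these 4 were then −69.4, −58.6, −60.4 and −54.3 points, against −83.1, −76.4, −76.4 and −71.4 with the trend kept. As above, the removal was not fitted at so low a GC content. The call near Tnfsf11 was lost without any 1 library of the comparison (0.0623 to 0.0983) and that near Mcc without any except scramble replicate 3 (0.0578 to 0.0869). That near Cntn4 was lost without scramble replicates 1 or 2 or acetate replicates 1 or 3 (0.0772 to 0.105), and that near Vstm2a without scramble replicate 3 or acetate replicate 3 (0.0563 and 0.0510). The largest rise lay at 5830454E08Rik near Rpl14, a ribosomal protein gene, with ranks of 28.7, 21.5 and 43.9 in scramble and 69.8, 78.7 and 66.5 with acetate (limma adjusted p = 0.0132). This rise did not pass without scramble replicate 1 or acetate replicate 2 (limma adjusted p = 0.0511 and 0.0578). The 137 calls became 38 and 53 without scramble replicates 1 and 3, and 59, 52 and 81 without acetate replicates 1, 2 and 3. They became 34 with the GC trend removed and 68 (23 higher, 45 lower) with ranks among distal regions alone.

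GC content moved with the rank differences. Members called higher in CPT1a knockout had a median GC content of 56.0% and those called lower 43.6%, and in KAT2a knockout the medians were 56.4% and 43.5%. Of the 501 members in the lowest quartile group of GC content (17.3 to 45.6%), 2 were higher and 135 lower in CPT1a knockout. Of the 500 in the highest quartile group (52.3 to 68.8%), 45 were higher and 4 lower. Of all regions, 6% were higher and 6.22% lower. Across members, the rank difference and GC content had a Spearman coefficient of 0.543 in CPT1a knockout, 0.474 in KAT2a knockout and −0.151 for acetate against CPT1a knockout, with 0.458, 0.395 and −0.107 over all regions. The scramble libraries stood apart in this respect. The rank of a member correlated with its GC content with coefficients of −0.338, −0.233 and −0.382 in the 3 scramble libraries, and between −0.0697 and 0.0896 in the other 9. The median rank of the lowest GC quartile group was 32.8, 23.1 and 30.9 in scramble and 12.4 to 16.5 elsewhere. The part of base composition in the calls was not tested beyond the removal of its trend.

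**Figure D3:**
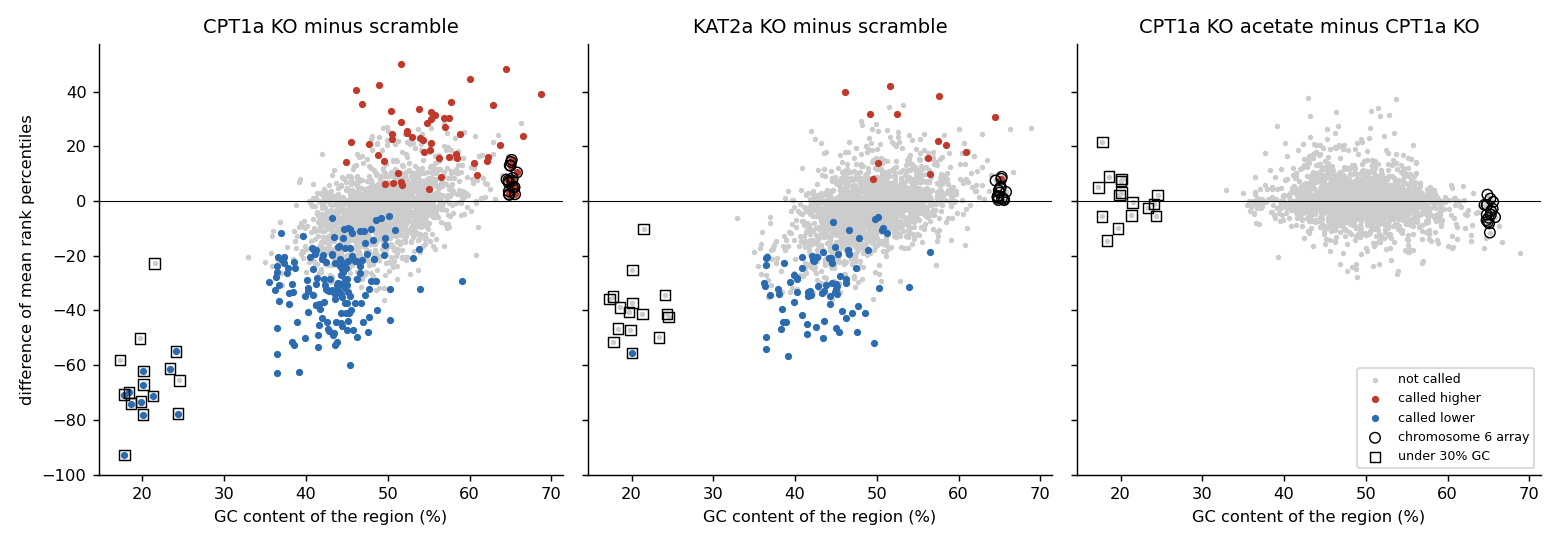
Difference in mean rank percentile against GC content (percent) for the 2001 members, in panels for each knockout less scramble and for acetate less no acetate among CPT1a knockout cells. Called members, the chromosome 6 array and the 16 members under 30% GC are marked. In both comparisons with scramble the cloud rises with GC content (Spearman 0.543 and 0.474), which it does not for acetate (−0.151).

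Several groups of members were singled out after their values were seen, so they are described with no test. The first consists of 16 members under 30% GC (17.3 to 24.5%), with a median width of 622 bp, of which a median of 80.8% of bases was soft-masked as repeat in the genome. Their median rank was 75.6, 93.0 and 84.8 in scramble, 2.82, 5.19 and 24.9 in CPT1a knockout and 10.1, 23.5 and 3.59 with acetate. In KAT2a knockout it was 33.9, 2.05 and 91.5, so replicate 3 was with scramble and replicate 2 at the opposite end. In CPT1a knockout 12 of the 16 were called lower (background 6.22%) and 0 higher, and 2 were lower once the GC trend was removed and 6 without scramble replicate 3. As above, that removal was not fitted at so low a GC content. In KAT2a knockout 1 was called lower (background 3.01%), and 9 were without KAT2a knockout replicate 3. With acetate against scramble 8 were called lower (background 3.98%). A related set of 24 members was soft-masked over at least 99% of their length, with a median GC content of 36.7%. Of these, 14 were called lower in CPT1a knockout, 8 in KAT2a knockout and 19 with acetate against scramble, and 0 higher. Of all regions, 6.22%, 3.01% and 3.98% were lower. As these 24 members are masked as repeat, they may share sequence and may not be independent regions. With the GC trend removed 0 of the 24 were called in any of these comparisons, and without scramble replicate 1 they were 7, 2 and 7. Their median rank was 36.9, 20.0 and 36.8 in scramble and 1.49 to 9.53 in the other libraries.

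On chromosome 6, between Ezh2 and Pdia4, 16 members formed a tandem array (chr6:47654981-47773084). Each carried a stretch at least 99% identical to the copy printed above. Within 2 runs parted by 54.6 kb, neighbours were spaced by a median of 4.34 kb (4.27 to 5.53 kb). This array makes Pdia4 and Ezh2 the genes with the most members, 10 and 9. GC content was 64.5 to 65.8%. Reads from near-identical copies cannot be placed with certainty, so the copies are not independent regions. Their median fold enrichment was 3.25, 4.23 and 3.65 in scramble, 8.73, 7.99 and 7.80 in CPT1a knockout, 7.94, 6.98 and 5.98 in the acetate group and 7.82, 7.11 and 6.02 in KAT2a knockout. Their median rank was 0.318, 1.03 and 0.376 in scramble, 7.16, 2.86 and 14.8 in CPT1a knockout, 5.65, 5.57 and 1.94 in the acetate group and 3.86, 1.58 and 2.10 in KAT2a knockout. The 3 scramble libraries were thus the lowest for the array, the reverse of the AT-rich members, although its copies ranked low throughout. By limma, 12 of 16 copies were called higher in CPT1a knockout, 1 in KAT2a knockout and 2 with acetate against scramble, where 6%, 2.37% and 2.31% of all regions were higher. With the GC trend removed 0 copies were called in these comparisons. The rank differences of the 12 in CPT1a knockout did not shrink, at 3.70 to 19.3 points against 2.51 to 15.1 with the trend kept. The 12 were 3 without scramble replicate 1, scramble replicate 3 or knockout replicate 3, and 7 without knockout replicate 1. Without scramble replicates 1 or 3, 0 copies were called in KAT2a knockout or with acetate. Beside the array, the members at the Y RNA genes Rny3 (chr6:47779571-47782728) and Rny1 (chr6:47787237-47790258), which encode small RNAs bound by the Ro protein, had median fold enrichments of 12.2 and 26.5.

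The Fgfr2 members were confined to coding exons. Fgfr2 encodes a receptor for fibroblast growth factors, and its 6 members, 400 to 513 bp wide, each lay over a coding exon, with fold enrichments of 10.3 to 14.2. Across the 98.0 kb from the first to the last of its 19 coding blocks, which together hold 2.81 kb, the 12 lists had 179 peaks, all over a coding block. Of the 19 blocks, 12 had a peak in all 12 libraries, 4 in some and 3 in none. The neighbouring blocks 8 (148 bases) and 9 (145 bases) are alternative exons, and block 8 had a peak in 12 libraries and block 9 in 0. The median rank of the 6 members was 37.7, 45.9 and 41.1 in scramble, 13.9, 13.7 and 19.3 in CPT1a knockout, 7.12, 27.9 and 20.4 in the acetate group and 11.5, 18.8 and 19.5 in KAT2a knockout. All scramble values lay above those of the other groups, and 2 of the 6 were called lower in each comparison with scramble (background 6.22%, 3.01% and 3.98%). In KAT2a knockout and with acetate 0 were called without scramble replicates 1 or 3 or with ranks among distal regions alone. The lower adjusted p in CPT1a knockout was at chr7:130242244-130242756, with ranks of 65.2, 58.3 and 61.6 in scramble and 19.5, 15.4 and 6.39 in CPT1a knockout (limma adjusted p = 0.00777). Whether DNA other than chromatin, such as cDNA or plasmid DNA, contributed to these peaks was not tested, so their values may not measure H3K9ac.

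**Figure D4:**
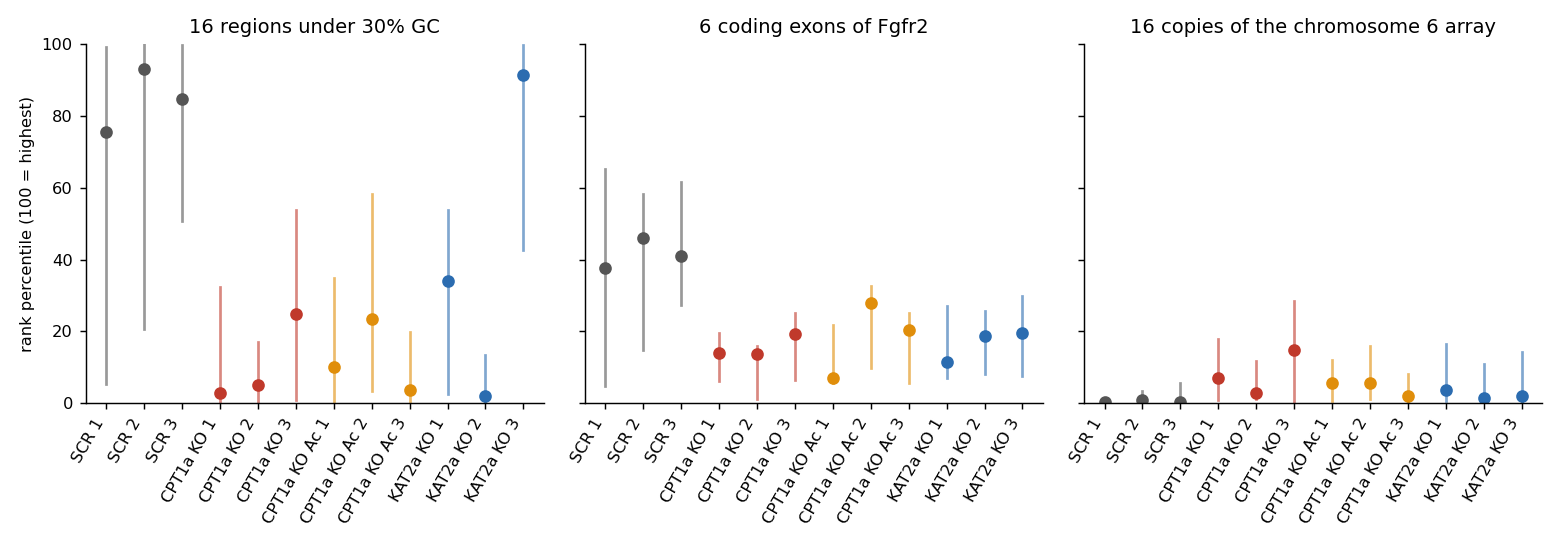
Rank percentile in each of the 12 libraries for 3 sets of members, the 16 under 30% GC, the 6 over Fgfr2 exons and the 16 copies of the chromosome 6 array. Points are medians and bars the lowest to highest value. The AT-rich and Fgfr2 sets are highest in scramble, KAT2a knockout replicate 3 aside for the AT-rich set (91.5), and the array is lowest in scramble.

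Narrow members were often pseudogenes. Of 74 members under 700 bp, 32 (43.2%) had their summit in an annotated pseudogene, 13 were AT-rich and 6 were the Fgfr2 exons, while 58 of the 1927 wider members (3.01%) had their summit in a pseudogene. Of the 32, 10 were pseudogenes of ribosomal proteins, among them Rps6-ps4 (chr2:75191326-75191924, fold enrichment 8.78) and Rpl13-ps6 (chr3:58987047-58987720, 10.9). Others were Ywhaq-ps3 (chr4:70248958-70249539, 13.6) and Krt8-ps (chr7:23357026-23357614, 8.50), a copy of an epithelial keratin gene. Processed pseudogenes resemble the exons of their parent genes, so reads of the pair may not be told apart, and these members are uncertain. Whether cDNA contributed to them was not tested either.

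After Pdia4 and Ezh2, the genes with most members were Bahcc1 and Fgfr2 with 6 each. At Bahcc1 the members had fold enrichments from 5.82 to 22.2. Tex14, Gse1, Hmga2, Tmem189, Zfhx3 and Zfpm1 had 5 each. For Tex14 they were Rnu1a1 and the 4 U3 genes Rnu3b1 to Rnu3b4, which encode the snoRNA that directs early ribosomal RNA cleavage and lie within chr11:87421393-87471530, with fold enrichments of 11.5 to 22.8. The U3 copies share their sequence, so reads may be split among them. The 5 of Zfhx3, a homeodomain factor, were all intronic, and the strongest (chr8:108755667-108760094, median 21.4) differed from scramble in CPT1a knockout (limma adjusted p = 0.0153), with ranks of 85.6, 67.6 and 70.0 in scramble and 31.7, 23.4 and 48.9 in the knockout, but not without scramble replicate 1 or knockout replicate 2 (0.0643 and 0.0543). The 5 near Hmga2, an architectural chromatin protein of proliferating cells, lay 125303 to 159850 bp from its TSS, with medians from 6.32 to 12.

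Members were assigned to the nearest protein-coding TSS to read gene lists, which says nothing of the gene they act on. Of 36 NF-kB genes, a family of inflammatory factors and targets, 11 had a member nearest to them, 14 members in all, and 0 of these were called in any comparison. At most 6.22% of all regions were called in either direction, a share from which 0 of 14 members cannot be told apart. The strongest lay near Irf1 (chr11:53762054-53765383, fold enrichment 17.6), Tnfaip3, a feedback inhibitor of NF-kB (chr10:19042163-19045936, 17.0), and the chemokine gene Cxcl2 (chr5:90899728-90901695, 15.5). Near Tnfaip3 the ranks were 18.9, 56.7 and 61.0 in scramble, 9.07, 41.1 and 38.0 in CPT1a knockout, 31.4, 24.9 and 23.2 in the acetate group and 32.3, 23.2 and 51.7 in KAT2a knockout, which overlap. AP-1 genes, of the Jun, Fos and ATF families, had 9 members near 5 of 12 genes. Their strongest was near Jun (chr4:95104386-95108318, 23.3), followed by Batf (chr12:85698030-85698709, 19) and Atf3 (chr1:191223080-191225648, 17.2).

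YAP and TEAD genes, which act in Hippo signalling, had 4 members near 4 of 15 genes, among them Wwtr1 (chr3:57509929-57513898, 18.2), Tead1 (chr7:112695019-112699541, 15.2) and Yap1 (chr9:8017539-8018070, 14.5). The ranks at Wwtr1, which encodes TAZ, were 77.1, 24.8 and 56.6 in scramble, 16.7, 21.4 and 19.7 in CPT1a knockout, 30.8, 44.6 and 75.9 in the acetate group and 63.7, 82.1 and 77.0 in KAT2a knockout (limma adjusted p = 0.0914 for the CPT1a and 0.337 for the KAT2a comparison with scramble). Of 25 mammary epithelial genes 7 had members, 9 in all, near Tfap2c, Cdh1 and Krt18 among others. Of 20 glycolysis and hypoxia genes 6 had members, 9 in all, the strongest near Ndrg1 (chr15:67038703-67042423, 24.8) at Gm31342. Of 31 matrix and adhesion genes 4 had 7 members, and of 25 acetyltransferases and deacetylases 4 had 4, near Hdac7, Kat6b and Hdac5 among others. Of 33 genes of fatty acid and acetyl-CoA metabolism, 1 had members, Scd2, a fatty acid desaturase (chr19:44283148-44285395 and chr19:44266442-44268629, 9.88 and 9.04). In each of these lists 0 members were called, where at most 6.22% of all regions were in either direction. Lists of so few members cannot be told apart from that share.

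Of 15 epithelial-mesenchymal transition genes, 5 had 8 members, of which 2 were lower in CPT1a knockout (background 6.22%), and both calls were lost without some single libraries and with the GC trend removed. Near Twist1 (chr12:34074955-34076267, in an intron of Hdac9 and 117284 bp from its TSS), the ranks were 30.0, 25.1 and 42.8 in scramble, 9.64, 7.07 and 6.95 in CPT1a knockout and 4.73, 7.29 and 12.5 in KAT2a knockout (limma adjusted p = 0.0149 and 0.0272). It was also lower with acetate against scramble (limma adjusted p = 0.0117). With the GC trend removed, none of the 3 calls passed (limma adjusted p = 0.926, 0.493 and 0.413), nor without scramble replicate 3 (0.0624, 0.0968 and 0.0515). The member nearest to Zeb2 (chr2:46441806-46444613) lay 1324411 bp from its TSS, at the noncoding gene Gm13470, with ranks of 39.2, 17.2 and 48.4 in scramble and 8.84, 3.39 and 0.789 in CPT1a knockout (limma adjusted p = 0.0315, and 0.134 with the GC trend removed). That call was also lost without scramble replicates 1 or 3 or knockout replicates 2 or 3 (limma adjusted p = 0.0655 to 0.110). No member was nearest to Cpt1a, Kat2a or Rela. Distal regions were called near Cpt1a in 1 library, and near Rela, which encodes p65, 4 regions were called in 1 or 2 libraries. As a check of the cell type, 9 of 10 epithelial marker promoters had a peak in all 12 libraries, while 7 of 8 leukocyte, 5 of 5 endothelial and 4 of 5 fibroblast marker promoters had a peak in 0. The exception among fibroblast markers, Pdgfra, had a peak in 12.

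Motifs were counted on both strands in the 500 bases around the summit. The AP-1 motif TGANTCA was in 16.4% of members, 5.92% of promoter regions and 14.6% of all merged regions. The SP/KLF motif GGGCGG was in 26.7% of members and 59.8% of promoter regions. By the kind of member, AP-1 was in 18.5% of those without an annotated TSS and in 10.0% of those at a noncoding TSS, while SP/KLF was in 22.8% and 39.1%. The TEAD motif ACATTCC was in 7.40% of members against 4.13% of promoter regions, RUNX (TGTGGTT) in 9.10% against 5.08%, and forkhead (TGTTTAC) in 6.10% against 3.86%. C/EBP, searched as TTGCNCAA, was in 4.95% against 2.91%. The GATA motif AGATAAG was in 5.30% against 2.88%. The ETS motif CCGGAAG was the less frequent in members, 6.85% against 11.0%. The NF-kB motif GGANTTTCC was in 2.75% against 2.00%, and the E-box CACGTG in 9.70% against 9.09%. In distal regions called in 1 library alone, AP-1 was in 17.4%, forkhead in 7.98% and GATA in 6.89%, all above the members. RUNX was in 9.84% of all merged regions. For these motifs, the higher shares against promoter regions are thus not particular to the members. TEAD was in 6.98%, C/EBP in 4.36%, NF-kB in 1.74% and the E-box in 6.20% of distal regions called in 1 library, all below the members. Whether these shares differ beyond their spread was not tested. CRE (TGACGTCA), NRF1 (GCGCATGCG) and GRHL (AACCGGTT) were each in under 1% of members. GC content differs between these motifs and between the classes, and was not held fixed in the counts.

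**Figure D5:**
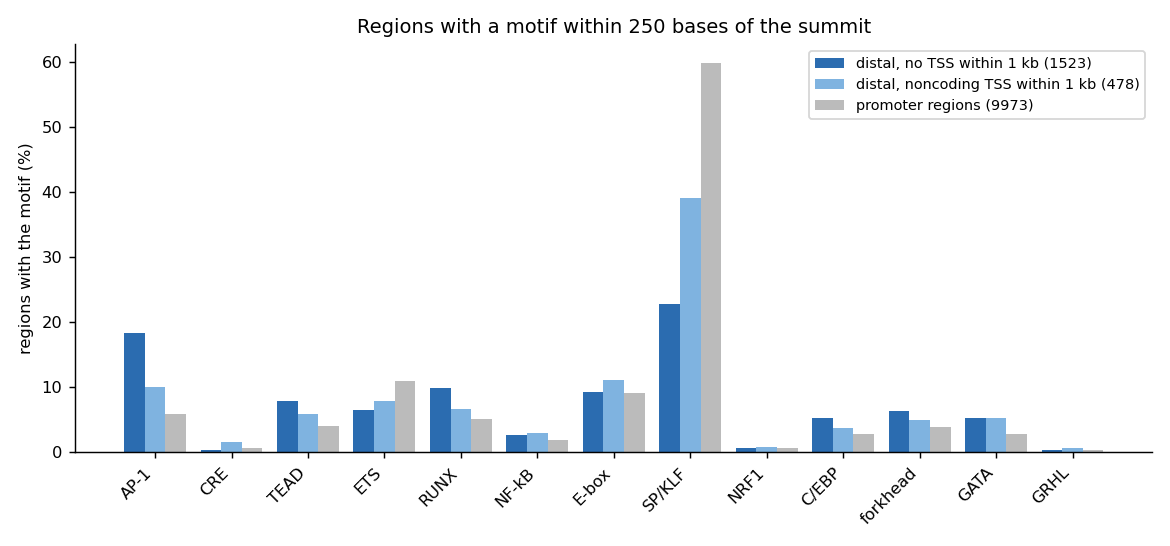
Percent of regions with each motif in the 500 bases around the summit, for members without an annotated TSS within 1 kb (1523), members with a noncoding TSS (478) and promoter regions (9973). AP-1 is most frequent in members without a TSS (18.5%) and SP/KLF in promoter regions (59.8%), with the members at noncoding TSSs in between for both.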

How the data were processed

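H3K9ac peak lists of 12 libraries were analysed, 3 for each of 4 groups taken from the labels. The 12 input libraries were not analysed here. According to the methods, the authors aligned reads to mm10 with BWA, while the submitters' processing notes name Bowtie2, SAMtools, deepTools and MACS2. How the inputs entered the peak calls is not given in the sources used here. The labels and methods give different catalogue numbers for the H3K9ac antibody. The authors made a separate list for each library. The deposited fold enrichment is a ratio of summit pileup to local background, with the same constant added to both. The deposited −log10 p and −log10 q of a peak refer to its own list, the smallest −log10 q being 2.00052, and the deposited score follows from the q. None of these was scaled between libraries. Lists held 16212 to 34370 peaks, and read depth is unknown. The calling depth was recovered by inverting the formulas of MACS2, a step tested on simulated data, and precision rests on 3 libraries a group.

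Distances, TSSs and classes came from GENCODE vM21, and sequences from the RefSeq copy of GRCm38 (mm10). A region's highest fold enrichment was ranked within its library over all 12098 regions called in 12 libraries, turned into normal scores, and tested with limma 3.58.1 (R 4.3.3) in 1 fit of 12 libraries and 4 groups, with Benjamini-Hochberg adjustment over all 12098 regions and a threshold of 0.05. The fit was tested on simulated data with 200 changed regions. Regions were named by rule: the 10 highest median fold enrichments, the 5 largest called rises and falls in each comparison (3 of each where none passed), up to 3 per gene list, the genes with most members and those at the limits of the rule. The members, lists, motifs and tests were chosen with earlier results of these data known. The members' presence in all 12 lists bars regions that are weak in any library. Alternatives were ranks by −log10 p, removal of the GC trend in 50 bins, ranks among distal regions alone, other limits of the rule, equal calling depth, the replicate block and leaving out each library. Python 3.11.15 was used for the rest. The methods describe added Drosophila chromatin, whose reads were not analysed here, so the total amount of H3K9ac was not measured here. The region just over the width limit and the sequences of some members are not reported here.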

Additional observations from a re-analysis of the deposited data

How the results depend on the processing

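Ranking by −log10 p in place of fold enrichment raised the members called to 638 in CPT1a knockout, 432 in KAT2a knockout and 462 in CPT1a knockout with acetate, each against scramble. Removing the GC trend lowered these counts to 66, 23 and 34. The shares of all regions called under this and the other alternatives are not given here. The shifts in count therefore cannot be read as particular to the members. Ranks among distal regions alone gave 31 calls in KAT2a knockout, 2 with acetate against CPT1a knockout and 68 with acetate against scramble, and turned the split in CPT1a knockout from 64 higher and 176 lower to 128 and 97. Fits of only the 6 libraries compared gave 140 calls in CPT1a knockout and 40 in KAT2a knockout. Requiring the peaks of each library to cover 0.5 of a region left 331 members, with 47, 16 and 28 calls. Equal calling depth, with its stricter cut, left 1212 members. Of these, 170 were called in CPT1a knockout (38 higher, 132 lower), 84 in KAT2a knockout and 116 with acetate, each against scramble. The cause of these shifts was not tested. Leaving out 1 library at a time, calls ranged from 120 to 219 in CPT1a knockout, from 24 to 88 in KAT2a knockout, from 0 to 0 with acetate against CPT1a knockout and from 38 to 122 with acetate against scramble. The lowest counts came without scramble replicate 3, replicate 3 and replicate 1. Counts kept within 1.5 times the main one in 69 of 97 settings. Among single regions named, 2882 results were on the same side of the threshold or within the spread, 387 lost the call, 30 gained it, 40 moved and 0 called ones turned direction. Leaving out members under 30% GC or with recurring sequence, which was chosen after seeing the data, moved no count by over 1.5 times.

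A replicate block gave 210 calls in CPT1a knockout (47 higher, 163 lower), 76 in KAT2a knockout, 0 with acetate against CPT1a knockout and 104 with acetate against scramble. The deviations of same-numbered libraries from their group means correlated between −0.0523 and 0.0684, so the numbers were not taken to pair the libraries. Of the distal regions called in 11 lists, 797 were missed by the shallowest, CPT1a knockout replicate 3, and 77 by acetate replicate 2, the next shallowest.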
